A study of Homo sapiens with 23 samples.

Results

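The comparison is of SUDHL5 cells given 30 nM CDK-TCIP1 for 2 h with SUDHL5 cells given 30 nM of a comparison compound, Neg1 or Neg2, for the same 2 h. It used 4 CDK-TCIP1 libraries and 4 control libraries, 2 with Neg1 (BAK_04_054) and 2 with Neg2 (BAK_04_066), chosen by dose and time from 23 libraries of poly(A) RNA. SUDHL5 is an established line from a diffuse large B-cell lymphoma, and the labels name no engineered allele in any group. CDK-TCIP1 has 2 ligands in 1 molecule, a binder of the BCL6 BTB domain and a kinase inhibitor that engages CDK9. The labels do not say how Neg1 and Neg2 differ from it; all compounds were given at a final 0.1% DMSO. Libraries at 10 and 100 nM for 2 h and at 30 nM for 4 h are used below only to place the response by dose and time.

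BCL6 is a zinc finger repressor that germinal centre B cells need; its BTB domain recruits corepressors to genes of cell death, cell cycle arrest and differentiation. CDK9 with cyclin T forms P-TEFb, which phosphorylates RNA polymerase II and its pausing factors and so releases paused polymerase into productive elongation. P-TEFb is held inactive by the 7SK particle, in which HEXIM1 is the inhibitor and MEPCE caps the RNA.

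The letters that BCL6 reads at DNA are shown because the design brings CDK9 to BCL6. The promoter windows, 250 bases before to 50 after the start of transcription, came from RefSeq (GRCh38.p14) and matched 130 of the 172 genes that the naming rule chose. The core motif searched was TTCCNNGAA on both strands; it includes the stricter TTCCTAGAA. It was in 4.58% of 27305 promoters and 4.35% of 10424 tested protein-coding genes with a window. Of genes that rose at least 2-fold it was in 14 of 315 (4.44%), and of those that fell at least 2-fold in 9 of 186 (4.84%). The stricter motif was in 0 windows of either set and in 0.221% of the tested genes. Among the genes described below, BCL6 itself (chr3:187745419-187745442, minus strand, the stricter motif read from the other strand) and MASP2 (chr1:11047306-11047335, minus strand) held matches. LTA (chr6:31572077-31572106, plus strand) and IRF1 (chr5:132490878-132490907, minus strand) held matches as well. Capitals mark the motif in the gene's own 5′ to 3′ direction.
BCL6: tgcaagaagtTTCTAGGAAaggcc
MASP2: atggagtcgaTTCCCAGAAtcccagagtca
LTA: ccgactccctTTCCCAGAActcagtcgcct
IRF1: acagcctgatTTCCCCGAAatgacggcacg
ICAM1, IFI27 and KIF20A held matches too, and BCL6 and LTA each a second one. A match is a description of these letters only. Of the 7 genes listed, MASP2 and IFI27 rose, and BCL6, LTA, IRF1, ICAM1 and KIF20A fell. The listing left out some named genes, MYC, RBPMS and BNIP3L among them. A gene missing from it is therefore not shown to lack a match.

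Library totals were 19754750 to 26373153 estimated counts with CDK-TCIP1 and 19014666 to 22530380 in the controls. On the first principal component of all libraries (27.64% of the variance) the CDK-TCIP1 libraries lay at 34.58 to 39.59 and the controls at -43.35 to -36.43. Neg2 library 1 stood apart on the third component (4.55% of the variance) at -43.69, where the other control libraries of 2 h lay at -4.70 to 5.79. Long non-coding RNAs took 1.41 to 1.52% of counts with CDK-TCIP1 and 1.06 to 1.26% in the controls, and mitochondrial genes 6.51 to 6.95% and 5.46 to 6.63%. The 50 most abundant genes took 17.1 to 17.7% of counts with CDK-TCIP1 and 15.3 to 16.1% in the controls. The part of these shifts in the results was not tested. Whether replicates came from separate cultures is not in the labels, and the p-values reflect only how these libraries varied, which could be technical variation. In bulk RNA, fewer cells of a kind and less RNA per cell cannot be told apart.

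CDK-TCIP1 changed 6582 of 17743 tested genes (37.1%) against the mean of Neg1 and Neg2. Of these, 3393 rose (19.1%) and 3189 fell (18.0%), by the edgeR quasi-likelihood test with Benjamini-Hochberg adjustment at 0.05. Most of the changes were small: among the 10086 better expressed genes, those whose average log2 CPM was 2 or more, 84.3% lay within 0.5 on the log2 scale. Called genes at least 2-fold higher numbered 863 (4.86%) and those at least 2-fold lower 359 (2.02%), and at least 4-fold there were 406 higher and 56 lower. Among the better expressed genes the order was the opposite, with 113 rises and 149 falls of that size (at least 2-fold). The gene lists below are read beside all genes, of which 19.1% rose and 18.0% fell; of better expressed protein-coding genes 24.7% rose and 29.1% fell. The 4 CDK-TCIP1 values lay above all 4 control values for 2956 genes (16.7%) and below them for 2959 (16.7%). The median log2 fold change of all genes was 0.03. Because TMM takes most genes as constant, a change in total mRNA is not measured here.

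The 15 named rises among protein-coding genes had control means of 0.378 to 6.2 CPM; ranking by fold favours genes that are low in the controls. PKNOX2, a homeodomain transcription factor, had 20.8, 19.9, 19.8 and 24.4 CPM with CDK-TCIP1, against 0.444 and 0.669 CPM with Neg1 and 0 and 0.398 CPM with Neg2. It rose by 5.92 ± 0.30 on the log2 scale (± SE, adjusted p = 1.2e-13). ADAMTSL4, a secreted matrix protein, had 10.2, 7.83, 9.83 and 8.52 CPM with CDK-TCIP1, against 0.197 and 1.24 CPM with Neg1 and 0.302 and 0.574 CPM with Neg2, a rise of 4.00 ± 0.31. The groups did not overlap for either gene. PKNOX2 (ENSG00000165495) lies at 125164687 to 125433389 of chromosome 11 and ADAMTSL4 (ENSG00000143382) at 150549369 to 150560937 of chromosome 1 on GRCh38.

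ADGRF1, an adhesion G protein-coupled receptor, rose by 3.57 ± 0.29, and AC015813.2, a gene without an assigned name, by 3.23 ± 0.22. APOLD1, an endothelial early response gene, had 55.6, 53.7, 44.9 and 45.7 CPM with CDK-TCIP1, against 6.91 and 4.69 CPM with Neg1 and 8 and 5.21 CPM with Neg2, a rise of 3.02 ± 0.17. The coiled-coil gene CCDC17 rose by 2.96 ± 0.21, the RNA-binding protein gene RBPMS by 2.86 ± 0.18 and PEX5L, which regulates HCN channels in neurons, by 2.71 ± 0.24. Several of these are genes of other tissues. LCT, the intestinal lactase, rose by 2.60 ± 0.25, the germ cell gene GCNA by 2.59 ± 0.14, MASP2, a serine protease of the lectin complement pathway, by 2.59 ± 0.20, and ALOX12, an arachidonate lipoxygenase, by 2.55 ± 0.23. SGPP2, a sphingosine-1-phosphate phosphatase, rose by 2.19 ± 0.22, AC027644.4 by 2.18 ± 0.21 and TMED6, a vesicle cargo protein gene, by 2.14 ± 0.20. All 15 were called against each compound alone, and all 15 were called again without each of the 8 libraries in turn and in counts scaled by transcript length. In that scaling ALOX12 rose by 0.99, APOLD1 by 1.81, RBPMS by 1.97 and PEX5L by 1.47.

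**Figure D1:**
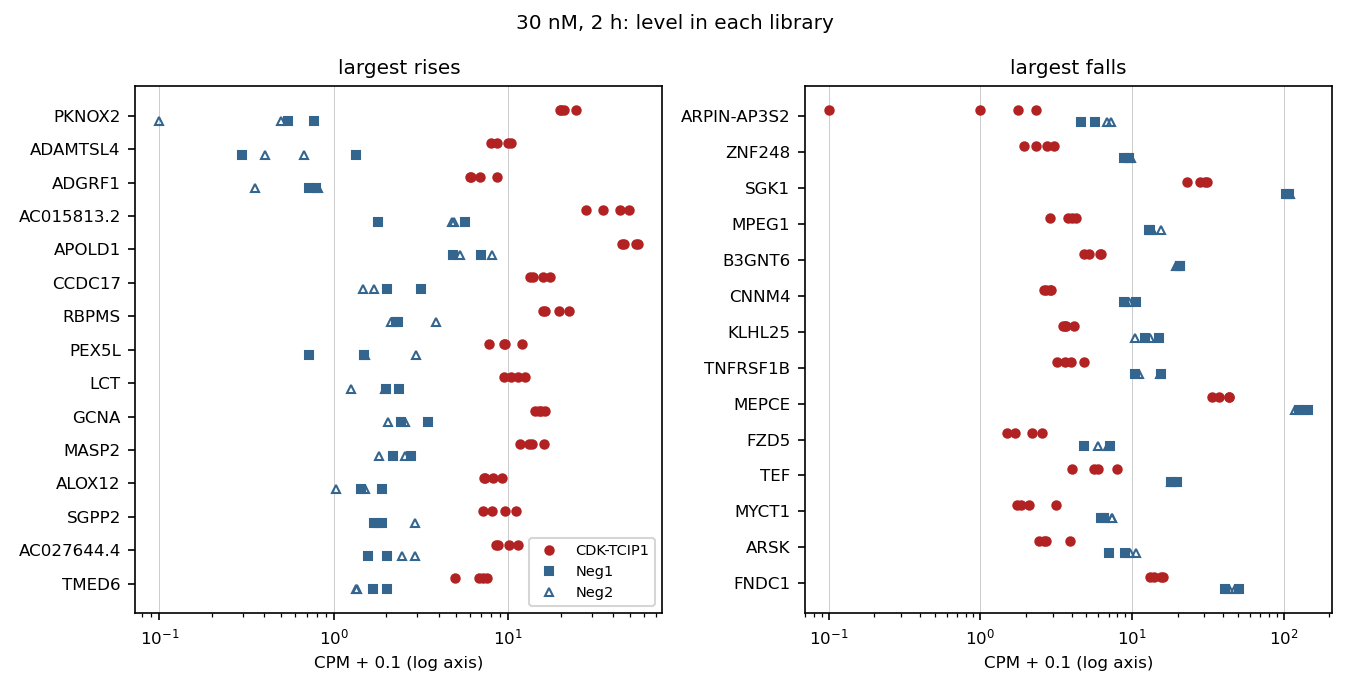
Level in each library, in CPM + 0.1 on a log axis, of the 15 protein-coding genes with the largest rises (left) and 14 of the 15 with the largest falls (right); circles are CDK-TCIP1, squares Neg1 and triangles Neg2. In every gene shown the 4 CDK-TCIP1 libraries lie on 1 side of the 4 control libraries, as the rule for naming them required.

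Some of these genes lie closely downstream of an active gene on the same strand. APOLD1 starts 3546 bases after the end of CDKN1B, the CDK inhibitor p27, which rose as well (1.43 ± 0.07, given with its values below). LCT starts 2446 bases after the replication helicase gene MCM6, with 578 CPM with CDK-TCIP1 and 568 CPM in the controls (0.02 ± 0.04, not called). GCNA starts 2514 bases after the glycosyltransferase gene OGT, with 236 CPM with CDK-TCIP1 and 222 CPM in the controls (0.09 ± 0.06, not called). MASP2 starts 7351 bases after the spermidine synthase gene SRM, which was not called either (-0.01 ± 0.05). For CCDC17 the upstream gene was GPBP1L1, which fell (-0.28 ± 0.05, 3247 bases), and for TMED6 the telomere protein gene TERF2, which rose (0.24 ± 0.06, 3752 bases).

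A count over all genes placed these pairs. An upstream neighbour on the strand that ended within 10 kb and had at least 20 CPM in the controls was found for 6 of the 15 largest rises (40.0%) and 2 of the 15 largest falls (13.3%). It was found for 25 of the 71 protein-coding genes of that expression level that rose at least 2-fold (35.2%) and 13 of the 135 that fell as much (9.63%). Over all 9487 such protein-coding genes it was 1013 (10.7%). The distance and level were chosen after the values of the named genes had been seen, and no test was made. The average log2 CPM that defines these sets is taken over all 23 libraries. A gene low in the controls can therefore enter through the CDK-TCIP1 libraries, and the 15 largest rises had control means of 0.378 to 6.2 CPM. The sets were not matched for level in the controls, so their shares need not be of like genes. Only gene totals were used, so reads between 2 genes were not examined.

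The largest rises by the naming rule were in short non-coding genes. LINC00273 (chromosome 16, 34158585 to 34160036) had 96.2, 90.1, 86.8 and 107 CPM with CDK-TCIP1, against 2.07 and 2.78 CPM with Neg1 and 0.151 and 0.663 CPM with Neg2, a rise of 6.54 ± 0.20. MIR3648-2 (chromosome 21, 8986999 to 8987178) had 82.3, 78.7, 79.6 and 98.9 CPM with CDK-TCIP1, against 1.53 and 1.70 CPM with Neg1 and 0.553 and 1.19 CPM with Neg2, a rise of 6.14 ± 0.20. No control library came near a CDK-TCIP1 library in either gene. MIR3687-2, 192 bases downstream of it, rose by 6.34 ± 0.21. MIR3648-1 and MIR3687-1 are identical copies elsewhere on chromosome 21; their reads were split evenly and their values are the same, so they are not separate results.

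The mature miRNA of the MIR3648 locus is shown, from RefSeq (GRCh38.p14, chr21:8987026-8987046, plus strand), with its seed, bases 2 to 8, in capitals, to identify the locus.
hsa-miR-3648: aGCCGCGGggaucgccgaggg
The libraries were enriched for poly(A) RNA and counted per transcript, so the values above are of reads assigned to the annotated gene and not of the mature miRNA.

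Non-coding falls were smaller. AC011944.1 fell by 1.80 ± 0.25, AL109628.2 by 1.79 ± 0.42, the snoRNA host SNHG5 by 1.75 ± 0.38, AP002358.1 by 1.71 ± 0.18 and AC244205.1, 323 bases after the immunoglobulin kappa segment IGKJ1, by 1.61 ± 0.16. AL109628.2 was not called against Neg1 alone (adjusted p = 0.0554, edgeR), and GEMIN2 upstream of it fell by 0.65 ± 0.12. Among tested lincRNA genes 12.5% rose and 3.91% fell, with a median of 0.27, and among antisense genes 12.1% rose and 4.14% fell. Over all tested genes 19.1% rose and 18.0% fell. Genes of any type with a control mean under 1 CPM rose in 12.5% and fell in 1.08% of cases (median 0.38). The lincRNA and antisense genes were low as well, with a median average log2 CPM of -0.58 and -0.51. The part of low expression in their shares was not tested. The counting is not stated to use strand, so an antisense RNA and its partner cannot be told apart.

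The 15 largest falls among protein-coding genes ranged from -2.28 to -1.65 on the log2 scale. SGK1, a serum-induced kinase, had 28.2, 31.2, 30.2 and 22.8 CPM with CDK-TCIP1, against 103 and 108 CPM with Neg1 and 110 and 108 CPM with Neg2. It fell by 1.93 ± 0.09 on the log2 scale (adjusted p = 5.29e-15). The CDK-TCIP1 libraries were all far below the controls.

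MPEG1, a pore-forming immune protein, fell by 1.92 ± 0.17, the glycosyltransferase gene B3GNT6 by 1.85 ± 0.12, the magnesium transporter gene CNNM4 by 1.82 ± 0.20 and KLHL25, a ubiquitin ligase adaptor, by 1.78 ± 0.12. TNFRSF1B, the second TNF receptor, fell by 1.77 ± 0.17, MEPCE by 1.73 ± 0.07, the Wnt receptor gene FZD5 by 1.72 ± 0.23, the PAR bZIP factor gene TEF by 1.67 ± 0.15 and MYCT1, a MYC target gene, by 1.66 ± 0.20. The sulfatase gene ARSK fell by 1.66 ± 0.20 and FNDC1, with fibronectin repeats, fell by 1.65 ± 0.10. ZNF248, a zinc finger gene, fell by 1.95 ± 0.20, but by 0.63 and with no call in counts scaled by transcript length (adjusted p = 0.15). ARPIN-AP3S2 is annotated as a fusion of 2 neighbouring genes, and its value, -2.28 ± 0.63, is uncertain because its reads are shared with them (adjusted p = 0.0932 with DESeq2). All 15 falls were called against each compound alone. The nearest upstream genes that were tested were ACER3, which fell by 0.30 ± 0.07, ZC3H7B, which rose by 0.21 ± 0.04, TNFRSF8 (-0.87 ± 0.84) and PILRA (0.02 ± 0.48).

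The kinase CDK9 and its cyclin CCNT1 rose, while HEXIM1 and MEPCE of the inhibitory 7SK particle fell. CDK9 had 68.2, 67.5, 64.9 and 60.6 CPM with CDK-TCIP1, against 45.3 and 47.2 CPM with Neg1 and 45.0 and 44.4 CPM with Neg2, a rise of 0.52 ± 0.08. CCNT1, its cyclin, averaged 170 ± 2.88 CPM with CDK-TCIP1 and 111 ± 7.13 CPM in the controls (SD, n = 4 each), a rise of 0.62 ± 0.06. AFF1, a scaffold of the super elongation complex, averaged 6.27 ± 0.425 CPM with CDK-TCIP1 and 2.71 ± 0.888 CPM in the controls, a rise of 1.23 ± 0.20.

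HEXIM1 had 10.1, 9.95, 11.2 and 9.09 CPM with CDK-TCIP1, against 24.7 and 18.7 CPM with Neg1 and 20.4 and 23.1 CPM with Neg2, a fall of 1.11 ± 0.12. MEPCE had 43.7, 37.4, 33.4 and 43.4 CPM with CDK-TCIP1, against 145 and 126 CPM with Neg1 and 119 and 136 CPM with Neg2. The groups were separate for HEXIM1 and for MEPCE. HEXIM2 was 0.48 ± 0.18 lower, and LARP7, another protein of the 7SK particle, was not called (-0.11 ± 0.06). EAF2, an ELL-associated elongation factor, fell by 0.53 ± 0.11. Of 32 tested genes of P-TEFb and elongation, 10 rose and 10 fell, with a median of -0.09, against 19.1% and 18.0% of all genes.

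**Figure D2:**
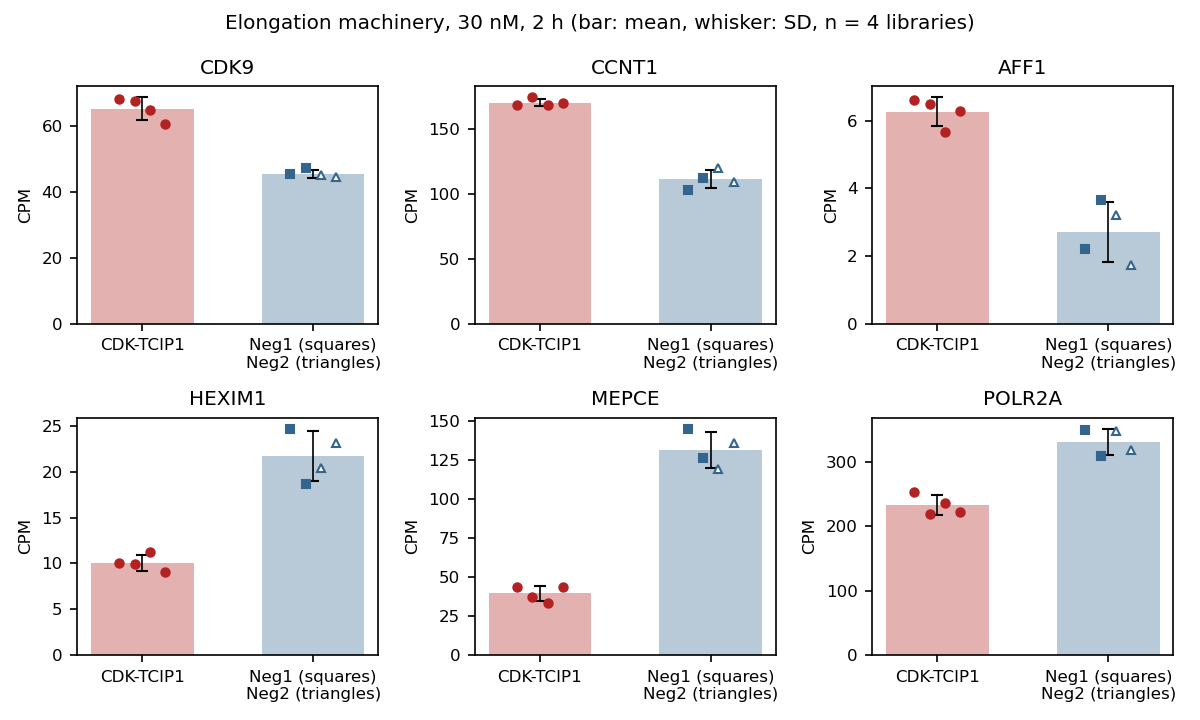
CPM of 6 genes of the elongation machinery in each library, with CDK-TCIP1 left and controls right; bars are means and whiskers SDs of 4 libraries, and each axis starts at 0. CDK9, CCNT1 and AFF1 were higher with CDK-TCIP1, and HEXIM1, MEPCE and POLR2A lower, with no overlap in any of the 6.

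Among 18 kinases and cyclins of transcription and RNA processing with the polymerase, 7 rose and 5 fell (median -0.03). Better expressed protein-coding genes rose in 24.7% and fell in 29.1% of cases. CCNL1 and CCNL2, the cyclins of the splicing kinase CDK11, rose by 0.69 ± 0.07 and 0.67 ± 0.06, and the SR protein kinase CLK2 by 0.68 ± 0.06. CLK4 fell by 0.59 ± 0.11. POLR2A, the catalytic subunit of the polymerase, averaged 232 ± 15.4 CPM with CDK-TCIP1 and 331 ± 20.5 CPM in the controls, a fall of 0.51 ± 0.06, and the Mediator kinase CDK8 fell by 0.46 ± 0.10. Splicing regulators were mixed: of 23, 8 rose and 9 fell, with a median of -0.02, beside the same 24.7% and 29.1%. SRSF4 rose by 0.31 ± 0.05, SRSF9 by 0.31 ± 0.06 and the speckle scaffold SRRM2 by 0.25 ± 0.05, while SRSF8 fell by 0.80 ± 0.07, SRSF7 by 0.57 ± 0.05 and SRSF6 by 0.51 ± 0.05.

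BCL6, the anchor of the molecule, had 323, 336, 337 and 332 CPM with CDK-TCIP1, against 407 and 387 CPM with Neg1 and 369 and 367 CPM with Neg2. It fell by 0.20 ± 0.04, with no overlap (adjusted p = 0.000231, edgeR). Of 34 tested genes known as repressed by BCL6, 4 rose and 11 fell, with a median of -0.13; BCL6 itself is on the list, as 1 of the 11. Beside these counts, 19.1% of all genes rose and 18.0% fell, and of better expressed protein-coding genes 24.7% and 29.1%. CDKN1B had 101, 89.0, 79.3 and 87.3 CPM with CDK-TCIP1, against 33.9 and 34.0 CPM with Neg1 and 31.9 and 32.3 CPM with Neg2, a rise of 1.43 ± 0.07. CD69, an early activation antigen, averaged 65.8 ± 6.68 CPM with CDK-TCIP1 and 31.7 ± 2.11 CPM in the controls, a rise of 1.05 ± 0.09. NFKB1, a subunit of NF-kB, rose by 0.18 ± 0.05, and its call was lost without Neg1 library 2 (0.14, adjusted p = 0.0855).

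The BCL6-repressed genes that fell most were JUN, an AP-1 subunit (-1.21 ± 0.10), MYC (-0.97 ± 0.08) and IFNGR1, an interferon gamma receptor chain (-0.77 ± 0.14). MYC averaged 69.2 ± 8.11 CPM with CDK-TCIP1 and 136 ± 7.82 CPM in the controls, with no overlap. PRDM1, the plasma cell regulator BLIMP1, was near the limit of detection, with 0.459 ± 0.324 CPM with CDK-TCIP1 and 0.332 ± 0.124 CPM in the controls, and was not called (0.50 ± 0.65).

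PMAIP1, the BH3-only protein NOXA, had 95.4, 96.3, 108 and 91.4 CPM with CDK-TCIP1, against 52.8 and 63.9 CPM with Neg1 and 62.0 and 64.5 CPM with Neg2, a rise of 0.69 ± 0.06 without overlap. The effector BAX and the mitophagy receptor gene BNIP3L rose by 0.27 ± 0.06 and 0.27 ± 0.05, and BMF, another BH3-only gene, fell by 0.60 ± 0.12, but BMF and BNIP3L had no call in length-scaled counts (-0.14 and 0.13). BCL2L11, which encodes BIM, averaged 149 ± 6.28 CPM with CDK-TCIP1 and 144 ± 5.41 CPM in the controls, and BBC3, which encodes PUMA, 13.8 ± 1.23 and 13.8 ± 3.07 CPM. Neither was called (0.05 ± 0.06 and 0.00 ± 0.12). Of 14 pro-apoptotic BCL2 family genes 3 rose and 3 fell (median 0.04), about the shares of all genes (19.1% and 18.0%).

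BAK1 fell by 0.25 ± 0.07, a call lost without Neg2 library 2 (-0.18, adjusted p = 0.0739). HRK, at about 1 CPM, was 0.93 lower, and its call was lost when any of 6 libraries was left out (adjusted p up to 0.463). Of 11 anti-apoptotic genes 2 rose and 3 fell (median -0.08), beside 19.1% and 18.0% of all genes. The inhibitor of apoptosis BIRC3 averaged 380 ± 27.5 CPM with CDK-TCIP1 and 485 ± 39.0 CPM in the controls, a fall of 0.35 ± 0.06. The call of CFLAR, the caspase-8 regulator (-0.19 ± 0.06), was lost without Neg2 library 2 (-0.12, adjusted p = 0.143). MCL1 averaged 613 ± 21.1 CPM with CDK-TCIP1 and 674 ± 14.6 CPM in the controls (-0.14 ± 0.05); it lost its call without CDK-TCIP1 library 2, CDK-TCIP1 library 4 or Neg1 library 2 (adjusted p of 0.0619 to 0.0876). BCL2L2 (0.35 ± 0.12) and BIRC2 (0.17 ± 0.06) each lost their call without any 1 of 5 libraries (adjusted p up to 0.141 and 0.238). BCL2 was not called, at 2.51 ± 0.715 CPM with CDK-TCIP1 and 3.01 ± 0.782 CPM in the controls (-0.25 ± 0.21).

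Among the caspases and death receptors, 19 tested, 3 were higher and 8 lower (median -0.31), where 19.1% and 18.0% of all genes did. The TRAIL receptor TNFRSF10B had 111, 108, 101 and 102 CPM with CDK-TCIP1, against 77.2 and 67.4 CPM with Neg1 and 71.4 and 77.4 CPM with Neg2, a rise of 0.53 ± 0.06. TNFRSF10A rose by 0.37 ± 0.07. The initiator caspase gene CASP2 fell by 0.76 ± 0.06, the apoptosome scaffold APAF1 by 0.69 ± 0.08 and the TNF receptor TNFRSF1A, at about 1 CPM, by 1.72 ± 0.47. CYCS, cytochrome c, was 0.13 ± 0.04 higher, a call lost without CDK-TCIP1 library 2, Neg1 library 1 or Neg2 library 1 (adjusted p up to 0.169). FAS was not called, at 8.89 ± 1.91 CPM with CDK-TCIP1 and 8.75 ± 0.817 CPM in the controls (0.03 ± 0.13).

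Of 25 targets of p53, 9 rose and 6 fell at 2 h (median 0.11), against 19.1% and 18.0% of all genes; the falls are near the 29.1% of better expressed protein-coding genes. ZMAT3, an RNA-binding tumour suppressor, had 120, 130, 128 and 127 CPM with CDK-TCIP1, against 80.7 and 83.2 CPM with Neg1 and 79.8 and 73.5 CPM with Neg2. It rose by 0.67 ± 0.05, and the DNA repair gene DDB2 by 0.59 ± 0.06. Others were lower: the kinase gene PLK3 fell by 0.93 ± 0.15, the antiproliferative gene BTG2 by 0.90 ± 0.07 and the stress sensor SESN2 by 0.70 ± 0.07. CDKN1A, the CDK inhibitor p21, averaged 14.8 ± 1.56 CPM with CDK-TCIP1 and 19.2 ± 1.57 CPM in the controls, a fall of 0.38 ± 0.10 that was -0.05 and not called in length-scaled counts.

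The list of CDK inhibitors and forkhead factors had 3 rises and 4 falls among 17 tested (median -0.08), CDKN1B being the largest rise. Over all genes 19.1% rose and 18.0% fell. CDKN2A rose by 0.48 ± 0.08, FOXO1 fell by 0.42 ± 0.06 and the cyclin CCNG2, a forkhead target, by 0.55 ± 0.06. FOXO3 was not called (-0.23 ± 0.10). FOXP1 was 0.16 ± 0.06 higher, lost without CDK-TCIP1 library 3, Neg1 library 1 or Neg2 library 2 (adjusted p up to 0.232). CDKN2D was 0.45 ± 0.14 lower on the log2 scale, lost without CDK-TCIP1 library 3 (-0.30, adjusted p = 0.0666).

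**Figure D3:**
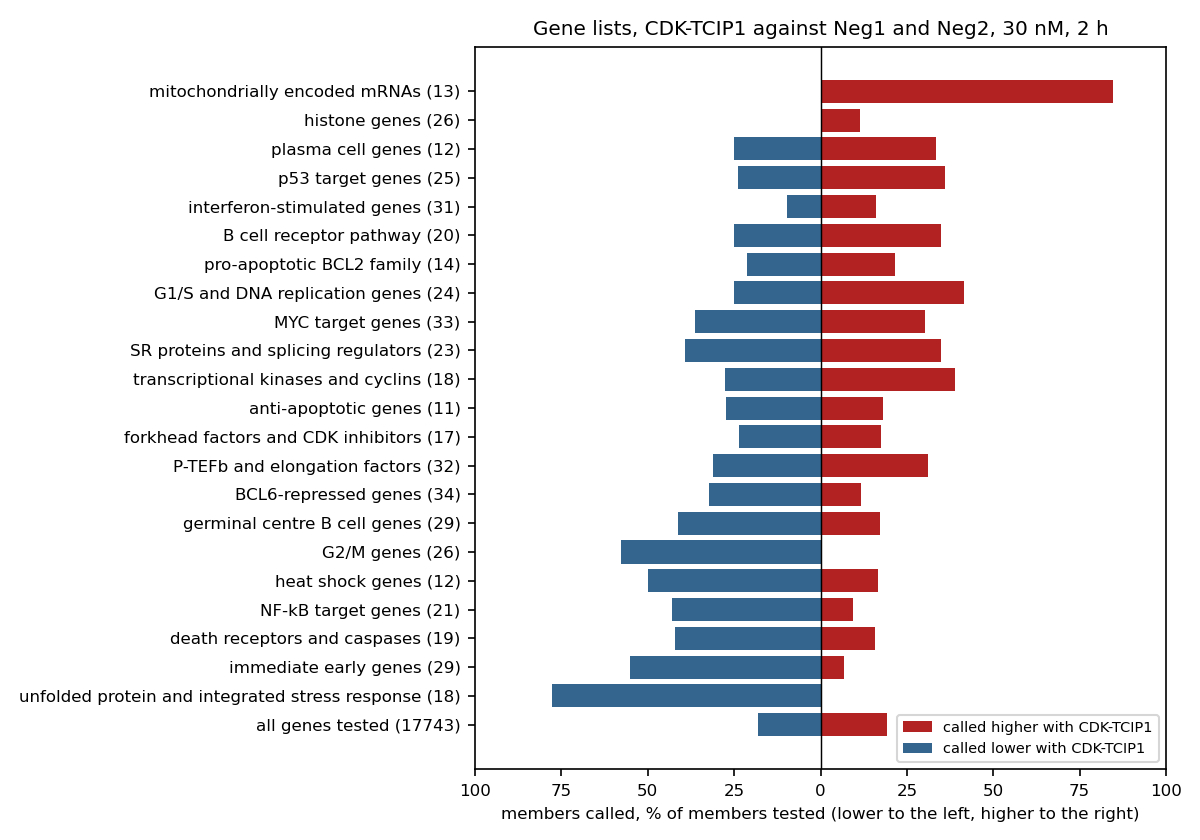
Share of the tested members of each gene list called higher (right) and lower (left) with CDK-TCIP1 at 30 nM and 2 h, in percent, with the number tested in brackets; lists are ordered by their median log2 fold change and all tested genes stand at the bottom. Stress response and immediate early genes lean to the lower side and mitochondrially encoded mRNAs to the higher side.

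Stress response genes were the list with the largest share of falls. Of 18 stress genes, induced by unfolded proteins or through ATF4, 14 fell and 0 rose, with a median of -0.49, where 18.0% of all genes fell and the median was 0.03. DDIT3, the stress factor CHOP, had 12.9, 12.7, 10.1 and 10.2 CPM with CDK-TCIP1, against 36.9 and 37.4 CPM with Neg1 and 25.4 and 33.4 CPM with Neg2, a fall of 1.52 ± 0.11. The lipoprotein receptor gene VLDLR fell by 1.26 ± 0.06 and the glutathione-degrading enzyme CHAC1, a target of ATF4 and CHOP, by 1.22 ± 0.11. Heat shock genes were mixed, with 2 rises and 6 falls of 12 (median -0.21), beside 19.1% and 18.0% of all genes. The cochaperone BAG3 fell by 0.96 ± 0.17, while HSP90AB1 rose by 0.28 ± 0.04 and the chaperonin HSPE1 by 0.34 ± 0.09. HSPA1A and HSPA1B fell by 0.94 ± 0.17 and 0.78 ± 0.12; they are near-identical copies whose reads cannot be divided with certainty.

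Immediate early genes fell in 16 of 29 cases and rose in 2 (median -0.34), beside 18.0% and 19.1% of all genes. FOSL2, an AP-1 subunit, fell by 1.47 ± 0.17, and DUSP1, a phosphatase that ends MAP kinase signalling, by 1.25 ± 0.30; SGK1 and JUN stand above. CD69 and IER2 (0.21 ± 0.05) were the 2 that rose. The NF-kB targets fell in 9 of 21 and rose in 2 (median -0.27), against 18.0% lower and 19.1% higher over all genes. TNF averaged 4.71 ± 0.551 CPM with CDK-TCIP1 and 10.6 ± 1.19 CPM in the controls, a fall of 1.17 ± 0.14, and the lymphotoxin gene LTA fell by 1.15 ± 0.18. ICAM1, an adhesion receptor, was under 1.1 CPM in every library and fell by 3.16 ± 0.94, lost without Neg1 library 1 (-2.59, adjusted p = 0.0648). RELB (0.18 ± 0.07) lost its call without any 1 of 6 libraries (adjusted p up to 0.301).

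Of 29 germinal centre genes 12 fell, where 18.0% of all genes and 29.1% of better expressed protein-coding genes did, and 5 rose, near the 19.1% of all genes (median -0.15). S1PR2, the receptor that confines B cells to the germinal centre, had 101, 97.4, 99.1 and 93.5 CPM with CDK-TCIP1, against 243 and 212 CPM with Neg1 and 238 and 229 CPM with Neg2, a fall of 1.24 ± 0.06. SERPINA9, a germinal centre serpin, fell by 0.83 ± 0.07. CD38, an ectoenzyme of germinal centre and plasma cells, rose by 0.73 ± 0.16, the DNA glycosylase NEIL1 by 0.43 ± 0.09 and BACH2, a repressor of plasma cell fate, by 0.34 ± 0.05. NEIL1 and BACH2 had no call in length-scaled counts (0.33 and 0.24).

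Of 20 components of B cell receptor signalling 7 rose and 5 fell (median 0.07), near the 24.7% and 29.1% of better expressed protein-coding genes. BCL10 rose by 0.47 ± 0.07 while MALT1, its partner in the CBM complex, fell by 0.56 ± 0.05. The adaptor BLNK had 58.3, 60.1, 61.7 and 60.5 CPM with CDK-TCIP1, against 82.7 and 94.4 CPM with Neg1 and 97.6 and 97.6 CPM with Neg2, a fall of 0.63 ± 0.06. The receptor chain CD79B fell by 0.31 ± 0.07, BTK rose by 0.24 ± 0.06 and PRKCB by 0.32 ± 0.07, the last with 0.11 and no call in length-scaled counts. Of 12 plasma cell genes 4 rose and 3 fell (median 0.14), beside 19.1% and 18.0% of all genes. The translocon subunit gene SSR4 rose by 0.34 ± 0.06, while CD27 fell by 0.55 ± 0.06 and XBP1 by 0.34 ± 0.07. DERL3 (0.39 ± 0.14), FKBP11 (0.27 ± 0.10) and SDC1 (-0.64 ± 0.21) lost their calls without any 1 of 4, 5 and 2 libraries, with adjusted p up to 0.18, 0.216 and 0.0725.

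Of 31 interferon-stimulated genes 5 rose, near the 19.1% of all genes, and 3 fell, against 18.0% (median 0.09). Members with no call included low genes with wide errors, such as IFIT1 (0.55 ± 0.79). IFI27 rose by 2.22 ± 0.48 at 1.70 ± 0.547 CPM with CDK-TCIP1 and 0.432 ± 0.297 CPM in the controls. The signal transducer STAT2 and the restriction factor TRIM22 rose by 0.42 ± 0.09 and 0.38 ± 0.07. The RNA sensor RIGI fell by 0.94 ± 0.20, the transcription factor IRF1 by 0.76 ± 0.10 and OAS2 by 0.70 ± 0.18. STAT2 had no call in length-scaled counts (0.17).

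MYC fell. Of 33 of its target genes 10 rose and 12 fell (median 0.00), beside 24.7% and 29.1% of better expressed protein-coding genes. BOP1, of ribosome biogenesis, rose by 0.37 ± 0.06 and the nucleoside diphosphate kinase NME1 by 0.30 ± 0.06. POLR1B, a subunit of RNA polymerase I, fell by 0.79 ± 0.07, the transferrin receptor TFRC by 0.47 ± 0.06 and the ribosome assembly gene NOP16 by 0.44 ± 0.08.

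Of 26 G2/M genes 15 fell and 0 rose (median -0.18), where 18.0% of all genes and 29.1% of better expressed protein-coding genes fell: the spindle checkpoint kinase TTK fell by 0.53 ± 0.09, BUB1B by 0.49 ± 0.06 and the kinesin KIF20A by 0.48 ± 0.07. Of 24 G1/S and replication genes 10 rose and 6 fell (median 0.02), with 24.7% and 29.1% of better expressed protein-coding genes; the difference between the phases was not tested. The helicase genes CDC45 and MCM5 rose by 0.38 ± 0.04 and 0.36 ± 0.04 and E2F1 by 0.32 ± 0.05. CCNE2, a cyclin of S phase entry, averaged 19.0 ± 1.40 CPM with CDK-TCIP1 and 40.2 ± 2.31 CPM in the controls, a fall of 1.08 ± 0.07. The reductase subunit RRM2 fell by 1.02 ± 0.18 and GINS1 by 0.39 ± 0.06. In length-scaled counts RRM2 was still called, at -0.50.

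Mitochondrially encoded mRNAs rose in 11 of 13 cases with a median of 0.22, where 19.1% of all genes rose. MT-CO3 rose by 0.30 ± 0.06, MT-ND2 by 0.26 ± 0.04 and MT-ND3, which overlapped between groups, by 0.54 ± 0.13. Histone genes, which poly(A) selection captures poorly, rose in 3 of 26 (median 0.19), beside the same 19.1% of all genes. H1-2 rose by 0.51 ± 0.10 and H2AC6 by 0.35 ± 0.10; H2AC8, under 1 CPM, lost its call without any 1 of 5 libraries (1.36 ± 0.52, adjusted p up to 0.19).

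The defining markers of the labelled cell type were present. B cell markers summed to 4432 to 4614 CPM with CDK-TCIP1 and 4045 to 4484 CPM in the controls. Of 8, 1 rose and 3 fell, beside 24.7% and 29.1% of better expressed protein-coding genes. CD74, the invariant chain, rose by 0.36 ± 0.04, BLNK and CD79B fell as given above, and MS4A1, which encodes CD20, was 0.14 ± 0.04 lower, lost without CDK-TCIP1 library 4, Neg1 library 2 or Neg2 library 1 (adjusted p up to 0.121). Of the 8 germinal centre markers 2 rose and 5 fell, beside the same 24.7% and 29.1%. MYBL1 was at 0.29 ± 0.05 and LMO2 at -0.52 ± 0.11, LMO2 with no call in length-scaled counts (-0.19). In those counts 1 of the 8 rose and 3 fell.

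T and NK cell markers summed to 3.15 to 3.76 CPM with CDK-TCIP1 and 2.70 to 3.09 CPM in the controls, with CD2 at 0; myeloid markers summed to 0.609 to 1.22 CPM and 0.719 to 1.08 CPM, with S100A8, S100A9 and FCGR3A at 0. Epithelial and fibroblast markers summed to 47.9 to 57.9 CPM with CDK-TCIP1 and 50.3 to 55.5 CPM in the controls. In these lists and the erythroid one, CD4, ALAS2 and ACTA2 were the 3 called. CD4 was at 0.636 ± 0.326 CPM with CDK-TCIP1 and 0.162 ± 0.0869 CPM in the controls, and ALAS2 at 0.433 ± 0.217 and 0.0612 ± 0.0252 CPM. Each lost its call without any 1 of 3 libraries (adjusted p up to 0.107 and 0.0649). ACTA2, smooth muscle actin, had 2.88 ± 0.522 CPM with CDK-TCIP1 and 0.967 ± 0.573 CPM in the controls (1.60 ± 0.37); it overlaps FAS on the other strand. Any part of RNA from other cells in the results was not tested.

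The controls were also taken 1 at a time. Against Neg1 alone CDK-TCIP1 changed 4933 genes (27.8%), 2420 higher and 2513 lower, and against Neg2 alone 5414 (30.5%), 2620 higher and 2794 lower. Called against each alone were 3887 genes, 1783 higher and 2104 lower, all with the same sign; both comparisons share the CDK-TCIP1 libraries. Neg1 and Neg2 were not distinguishable at this depth and number: 0 genes were called between them by edgeR, and 1126 (6.35%) had an unadjusted p under 0.05. The count became 143 with no filter on low counts, 83 without Neg2 library 2 and 1 without Neg1 library 2. The run with no filter kept 2 libraries of each compound. Leaving out a control library leaves 1 for its compound, Neg2 library 1 when Neg2 library 2 is out. That library is then assumed to vary like the other groups. PKNOX2 rose by 5.24 against Neg1 and 6.61 against Neg2, LINC00273 by 5.29 and 7.79, while SGK1 fell by 1.90 against Neg1 and 1.95 against Neg2.

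The named genes were also set out by dose, with 2, 4 and 3 libraries at 10, 30 and 100 nM. Mean PKNOX2 levels were 5.31, 21.2 and 59.0 CPM at 10, 30 and 100 nM for 2 h, and mean LINC00273 levels 24.5, 95.1 and 249 CPM. MEPCE was at 61.6, 39.5 and 28.1 CPM and SGK1 at 38.7, 28.1 and 18.7 CPM. In all 15 of the largest rises and all 15 of the largest falls the 10 nM mean lay between the control and 30 nM means, and at 100 nM 11 rises and 9 falls went beyond 30 nM. These levels are a description with no test, since the genes were chosen for their change at 30 nM.

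The effect at 2 h was also set against the effect at 4 h, with controls of its own at 4 h (3 CDK-TCIP1 libraries, 2 with Neg1 and 2 with Neg2). The difference between the effects was called for 2126 genes, 996 upward (5.61%) and 1130 downward (6.37%). Across the better expressed genes the effects correlated at r = 0.751, and 88.7% of genes called at 2 h had the same sign at 4 h; genes are not independent replicates. Of genes that rose at 2 h, 161 were higher still at 4 h and 278 lower. Among genes that fell, 328 were lower still and 481 had recovered part of the way or more. The 2 h effect chose these genes and is also subtracted in the difference. That alone tilts the split toward recovery, so these counts are no test of it. A further 354 genes with no call at 2 h had a difference upward and 524 downward.

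Several cell death genes had a larger effect at 4 h. BBC3 had an effect of 1.09 at 4 h, a difference of 1.09 ± 0.18 from 2 h, and FAS 1.10 at 4 h, a difference of 1.07 ± 0.18. BCL2L11, FOXO3 and CDKN1A had differences of 0.40 ± 0.09, 0.80 ± 0.15 and 0.76 ± 0.14, and CDKN1A was lower at 2 h and 0.39 higher at 4 h. MCL1 went the same way (0.31 at 4 h, a difference of 0.44 ± 0.07). Of 25 p53 targets, 20 had a called difference upward and 1 downward, where 5.61% and 6.37% of all genes did. The list's median was 0.11 at 2 h and 0.61 at 4 h. TNFRSF10B, ZMAT3 and DDB2, which had risen at 2 h, were higher still (differences of 0.91 ± 0.09, 0.81 ± 0.07 and 0.35 ± 0.09).

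AFF1 had the largest difference upward by the naming rule, 2.16 ± 0.29, with an effect of 3.39 at 4 h. The lysosomal phospholipase gene PLA2G15 and KLHL25 had fallen at 2 h (-1.43 ± 0.17 and -1.78 ± 0.12) and were at -0.11 and -0.51 at 4 h. ZBED6, an intronless gene inside an intron of ZC3H11A, differed by 1.47 ± 0.26 and had no call at 2 h. The fusion genes HSPE1-MOB4 and RPL17-C18orf32 differed by 1.64 ± 0.50 and 1.40 ± 0.39, and their reads are shared with the genes they span.

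Downward, SERPINA9 continued to fall, with an effect of -2.14 at 4 h (difference -1.30 ± 0.10). BLNK, CD27, TFRC, POLR2A and GINS1 were further down as well, by 0.40 to 0.78 beyond the 2 h effect. CRTC1, a coactivator of CREB, had 19.0, 16.2, 18.5 and 16.3 CPM with CDK-TCIP1 at 2 h, against 12.8 and 12.6 CPM with Neg1 and 9.21 and 8.79 CPM with Neg2. It was 0.71 ± 0.12 higher at 2 h and 0.53 lower at 4 h, and BACH2 was 0.34 higher and 0.27 lower. The sperm protein gene ZPBP2, the triglyceride synthesis gene DGAT2 and AC020909.1 differed by -1.42 ± 0.19, -1.29 ± 0.22 and -3.93 ± 1.01, and of these only ZPBP2 was called at 2 h (-0.47 ± 0.12). Of 33 MYC targets, 12 had a called difference downward and 2 upward, beside 6.37% and 5.61% of all genes. BOP1 and NME1, which had risen at 2 h, were among the 12, with effects of 0.12 and 0.03 at 4 h.

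**Figure D4:**
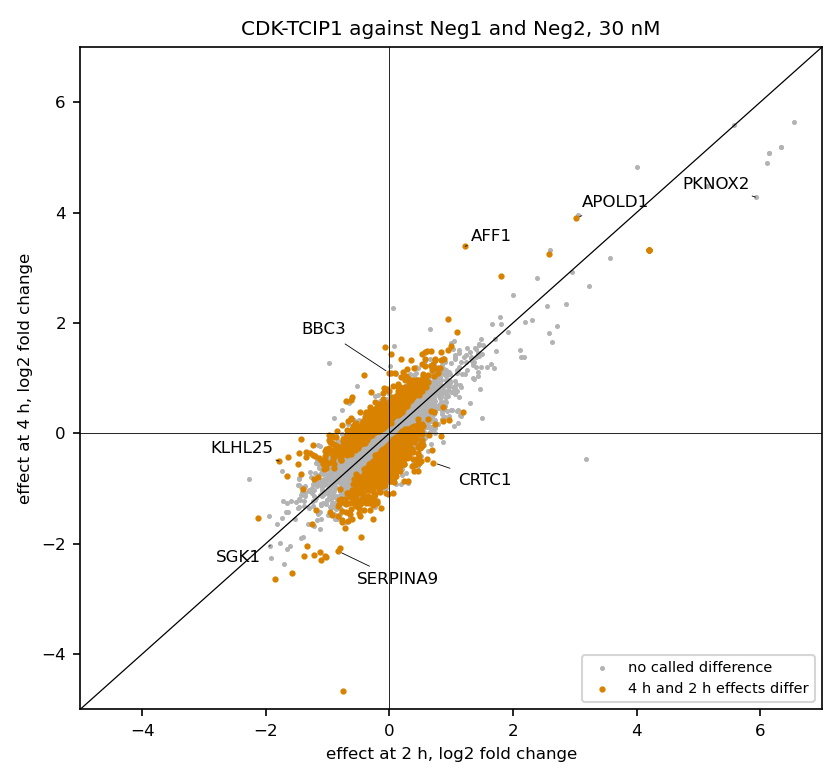
Effect of CDK-TCIP1 against Neg1 and Neg2 at 2 h (horizontal) and at 4 h (vertical), in log2 fold change, for genes whose average log2 CPM was 2 or more; the diagonal marks equal effects and orange points a called difference. Points follow the diagonal at r = 0.751, with AFF1 above it and SERPINA9 below.

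The shares also differed by gene structure. Of 107 intronless protein-coding genes whose average log2 CPM was 2 or more, 46.7% fell and 20.6% rose, and of 213 genes with 2 exons 38.5% fell and 19.2% rose. All 9487 such genes fell in 29.1% and rose in 24.7% of cases. Genes that span under 5 kb rose in 35.4% and fell in 23.5% of 690 cases, and genes of 50 to 150 kb rose in 17.1% and fell in 35.2% of 2518. Above 150 kb the order turned again, with 30.3% higher and 18.7% lower of 914.

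**Figure D5:**
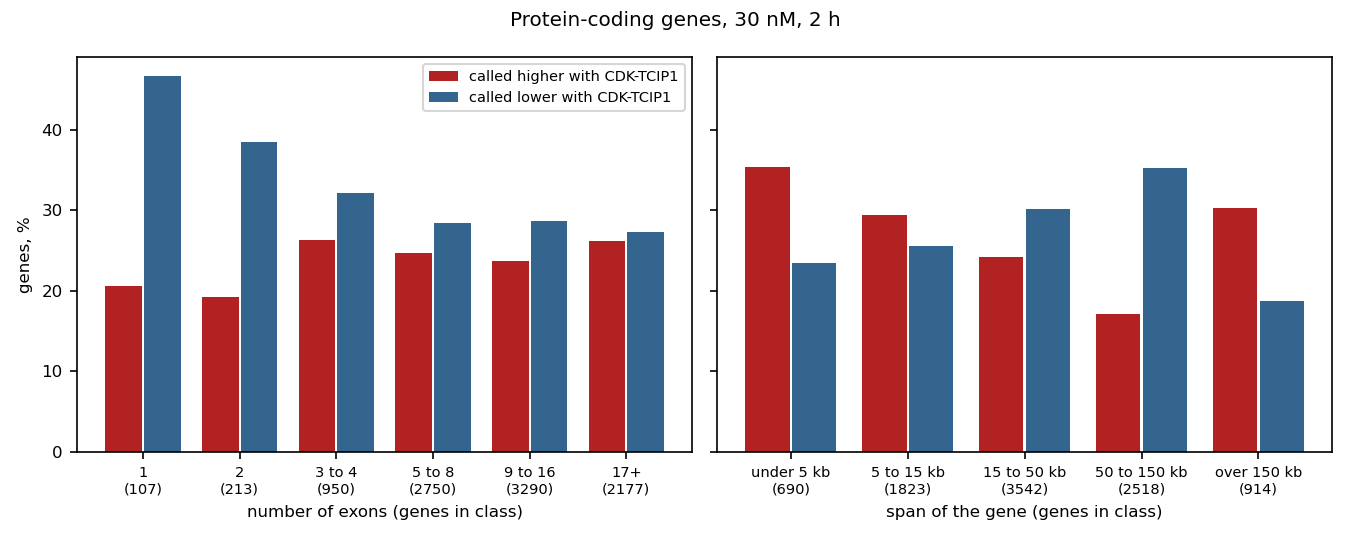
Percent of protein-coding genes, those whose average log2 CPM was 2 or more, called higher (red) or lower (blue) with CDK-TCIP1, by the largest number of exons of a transcript (left) and by the span of the gene (right), with the number of genes in brackets. Intronless genes fell in 46.7% of cases, and genes over 150 kb rose in 30.3%.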

How the data were processed

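The authors deposited for each library a table with an estimated count and a TPM value for each of 227912 transcripts; the tools were kallisto, cutadapt, FastQC and DESeq2, per the submitters' processing notes. Their versions, the transcript set and any strand setting were not given in the sources used here. Estimated counts were summed over 205964 transcripts matched to GENCODE 29 (GRCh38), rounded, and tested for 17743 genes that passed filterByExpr. In the 8 libraries compared, 1.22 to 1.28% of counts fell on unmatched transcripts. The deposited TPM values served only to build counts scaled by transcript length. Differences were tested by quasi-likelihood F tests in edgeR 4.0.16 (R 4.3.3), with TMM, all 23 libraries, a coefficient for each of 9 groups, 14 residual degrees of freedom and Benjamini-Hochberg adjustment over all genes tested; called means an adjusted p under 0.05. A standard error is the log2 fold change over the square root of its F. CPM values use TMM library sizes. DESeq2 1.42.0 was an alternative. On simulated counts the fit recovered 74.24% of changes of 0.5 and 100% of those of 1 and 2 (log2). The simulation gave all genes the same spread and placed changes only in genes above a set count. These shares therefore do not describe low or more variable genes. Replicates differed by more than sampling noise: within the 3 groups the chi-square statistic was 5.04 to 13.5 times its degrees of freedom.

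Members and gene lists were chosen with earlier results of these data known. Named genes are, among called protein-coding genes, the 15 that rose most and the 15 that fell most (average log2 CPM of at least 2, no overlap), the 5 among non-coding genes (at least 1), up to 3 called members of each list in each direction, the 5 largest 4 h minus 2 h differences each way, a fixed set of BCL6, P-TEFb and cell death genes whatever their values, and nearest upstream genes within 50 kb. A small number of genes that the rule chose are not reported here; they stay in the fits and in counts over lists.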

Additional observations from a re-analysis of the deposited data

Results flagged for a closer look

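For 54 named genes the effect of CDK-TCIP1 at 4 h, less the effect at 2 h, differed by the test of the difference itself (edgeR, Benjamini-Hochberg adjusted p under 0.05). The largest differences upward, in log2, were 2.16 for AFF1, 2.10 for AL109628.2, 1.81 for ACTA2, 1.64 for HSPE1-MOB4, 1.47 for ZBED6, 1.40 for RPL17-C18orf32 and 1.31 for PLA2G15. Next came 1.28 for KLHL25, 1.09 for BBC3, 1.07 for FAS, 0.92 for IFNGR1, 0.91 for TNFRSF10B, 0.89 for PLK3 and 0.88 for APOLD1. Smaller upward differences were 0.88 for MYCT1, 0.81 for ZMAT3, 0.80 for FOXO3, 0.76 for CDKN1A, 0.66 for GCNA, 0.55 for CCNL2 and 0.53 for CCNE2. Further ones were 0.50 for TNFRSF10A, 0.48 for SRSF4, 0.46 for TRIM22, 0.44 for MCL1, 0.42 for FOXO1, 0.41 for SRSF6 and 0.40 for BCL2L11. Then followed 0.38 for CASP2, 0.35 for DDB2, 0.34 for SESN2, 0.33 for BTG2, 0.30 for CCNT1, 0.29 for BIRC2 and 0.27 for SRRM2. The smallest upward differences were  and 0.26 for MYBL1. Downward, the largest were -3.93 for AC020909.1, -1.42 for ZPBP2, -1.30 for SERPINA9, -1.29 for DGAT2, -1.25 for CRTC1, -0.79 for B3GNT6 and -0.78 for CD27. Smaller ones downward were -0.72 for EAF2, -0.61 for BACH2, -0.56 for LMO2, -0.54 for POLR2A, -0.54 for BLNK, -0.43 for GINS1 and -0.40 for TFRC. The least were -0.34 for CYCS, -0.27 for MS4A1, -0.27 for NME1 and -0.25 for BOP1.

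In 19 of 340 groups of 4 libraries tested, 1 library lay apart from the others by Dixon's criterion, where chance gives about 1 in 20. The criterion sets a gap against the range of the 4 values, so a small gap passes where the others lie close. Each control group of 4 pools Neg1 and Neg2 libraries. CDK-TCIP1 library 1 had ICAM1 at 0 CPM against 0.103 to 0.106, CCNE2 at 17 CPM against 19.5 to 20 and HSPA1A at 6.93 CPM against 12.3 to 13.2. CDK-TCIP1 library 2 had CYCS at 346 CPM against 319 to 322, MALT1 at 80.5 CPM against 82.4 to 82.8 and SSR4 at 105 CPM against 92.4 to 93.6. CDK-TCIP1 library 3 had MYBL1 at 392 CPM against 354 to 355. CDK-TCIP1 library 4 had H2AC6 at 18.9 CPM against 23.1 to 23.8 and FAS at 6.04 CPM against 9.62 to 10.1. Neg1 library 1 had CCNL1 at 121 CPM against 128 to 129, ALAS2 at 0.0987 CPM against 0.0442 to 0.0515 and PLA2G15 at 13.4 CPM against 10.3 to 10.6. Neg1 library 2 had BCL2 at 4.17 CPM against 2.47 to 2.74. Neg2 library 1 had RBPMS at 3.77 CPM against 2.03 to 2.22, SGPP2 at 2.82 CPM against 1.6 to 1.78, CHAC1 at 32.8 CPM against 41.7 to 42.9 and MYBL1 at 322 CPM against 288 to 290. Neg2 library 2 had IFNGR1 at 7.25 CPM against 8.24 to 8.44 and MT-ND3 at 1120 CPM against 727 to 746. The ranges are those of the other libraries of the same side of the comparison. MYBL1 was set apart on both sides, in CDK-TCIP1 library 3 and Neg2 library 1.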

How the results depend on the processing

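The count of called genes stayed within 1.5 times of 6582 in every alternative run: 6583 with DESeq2's size factors in edgeR (RLE), 6188 with no filter, 4497 in length-scaled counts, 5947 with a replicate block, 6112 with the 8 libraries alone and 6682 with DESeq2. Leaving out 1 library gave 5652 to 6188, and 5358 of the genes (81.4%) were called again without Neg2 library 1. In length-scaled counts 4136 (62.8%) were called again, 10 with the opposite sign. In that scaling the counts for the time difference, Neg1 alone and Neg2 alone were 621, 2870 and 3362, against 2126, 4933 and 5414, and the cause was not tested. Leaving out 1 library gave 1580 to 2466, 3012 to 4676 and 3250 to 5231. An alternative chosen after seeing the data, without Neg2 library 1 and 100 nM library 1, gave 5929 for the main count and 3651 against Neg2 alone. Between Neg1 and Neg2 the count was 143 with no filter and 0 to 83 on leaving out 1 library. Same-numbered libraries did not deviate together (correlations of -0.042 to 0.032). With 2 libraries for each control compound their deviations mirror each other, so this check is weak. It cannot show whether replicate numbers pair the samples. The replicate block gave 1924, 4534 and 5089 for the time difference, Neg1 alone and Neg2 alone.

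Of the named genes, those not called changed sign most: BBC3 was at -0.011 with no filter, -0.023 in length-scaled counts, -0.006 with the replicate block, -0.013 with the 8 libraries alone and -0.16 in the added alternative. HRK was at 0.11 in length-scaled counts and PRDM1 at -0.38 with the block. In the added alternative RPL17-C18orf32 was at -0.19, HSPE1-MOB4 at 0.035 and FAS at -0.00. Leaving out 1 library gave ranges of -0.153 to 0.193 for BBC3, -0.023 to 0.838 for PRDM1, -0.043 to 0.172 for FAS, -0.208 to 0.125 for HSPE1-MOB4, -0.198 to 0.348 for RPL17-C18orf32 and -1.563 to 0.975 for AC020909.1. Low counts limit genes under 1 CPM, and 2 libraries a compound limit the single comparisons.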
